A study of Capra hircus with 10 samples.

Results

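The enzymes and the chaperone that hydroxylate, fold and cross-link collagen were described here in goat mammary gland cells. The cells were treated to overexpress or to knock down the long noncoding RNA lncRNA55666. The members are 10 genes, P4HA1, P4HA2, P4HA3, PLOD1, PLOD2, PLOD3, SERPINH1, LOX, LOXL1 and LOXL2, of the 17197 genes in the deposited table, and they were chosen by name. RefSeq symbols identified 9 of them. The tenth, P4HA2, has the symbol LOC102189116 in RefSeq, and its row was taken because every protein description that the deposited table gives for it is of the prolyl 4-hydroxylase subunit alpha-2. The values are FPKM, fragments sequenced relative to the length of the transcript and the size of the library, in 10 libraries of total RNA.

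The cells came from Lanshan dairy goats and were kept in 3D culture in all groups. There were 5 groups of 2 libraries. Blank has the genotype control in the labels, Lv5NC the genotype 5NC and Lv3NC the genotype 3NC. Lv5NC and Lv3NC were taken here as control viruses and Blank as cells without virus. OV55666 received a virus that carries the lncRNA55666 gene for overexpression, and in KD553 the lncRNA was knocked down. OV55666 was set against Lv5NC and KD553 against Lv3NC, the order in which the series text lists them, and Lv5NC and Lv3NC were set against Blank and against each other. The labels give no time and no number of animals. They do not state whether libraries are separate cultures, so a p-value here reflects only how far these libraries differ, and that spread may be technical. No row of the table is named for lncRNA55666, and its level is not analysed here.

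Collagen chains are modified in the endoplasmic reticulum before they leave the cell. The prolyl 4-hydroxylases, tetramers of an alpha subunit (P4HA1, P4HA2 or P4HA3) and protein disulfide isomerase (P4HB), hydroxylate proline so that the triple helix is stable at body temperature. The lysyl hydroxylases PLOD1, PLOD2 and PLOD3 hydroxylate lysine, the site of later sugars and cross-links, and PLOD2 acts on the telopeptides at the ends of the chains. SERPINH1 (HSP47) is a chaperone that binds the folded procollagen helix. Outside the cell the copper enzymes LOX, LOXL1 and LOXL2 oxidise lysine and hydroxylysine, which then form the cross-links of fibrils and of elastin. In the mammary gland this matrix surrounds the ducts and alveoli and is made largely by stromal fibroblasts.

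FPKM summed to between 440565 and 460423 per library, and the depth in reads is unknown. The cells were labelled as mammary gland cells. All 12 fibroblast markers were at 1 FPKM or more in every library, while 14 of 17 luminal epithelial markers were below 1 in every library, KRT8 and EPCAM at no more than 0.02. The other luminal markers were ESR1 (5.15 to 12.03 FPKM), SPINT2 (3.23 to 7.11) and CLDN4 (0.26 to 1.04). Below 1 in every library were also 4 of 9 basal or myoepithelial, 8 of 9 endothelial, 11 of 13 leukocyte and 5 of 7 adipocyte markers with a row. The exceptions were ERG (19.11 to 31.51) among endothelial and CD14 (16.85 to 37.23) and CD68 (1.0 to 2.33) among leukocyte markers. Among adipocyte markers they were CIDEC (3.13 to 7.41) and CIDEA (7.58 to 11.05). The Blank libraries differed more than those of other groups: 72.8% of the 11340 genes tested were lower in the second than in the first (median log2 difference −0.104), where this share was 51.1% to 56.5% in the other groups. The differences of PLOD2, LOXL1, LOXL2 and P4HA3 from Blank are therefore also given without each Blank library. In bulk RNA, fewer cells of a type and less RNA per cell cannot be told apart.

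All 10 members were well above the filter of 1 FPKM, and all 10 were tested. Their mean over the 10 libraries ranked them among the most abundant genes, from SERPINH1, above 98.9% of the genes tested, to PLOD2, above 90.0%. Summed, the members were at 1468 to 1769 FPKM per library, which was 12.7% to 15.6% of the summed FPKM of the collagen chain genes COL1A1, COL1A2 and COL3A1.

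**Figure D1:**
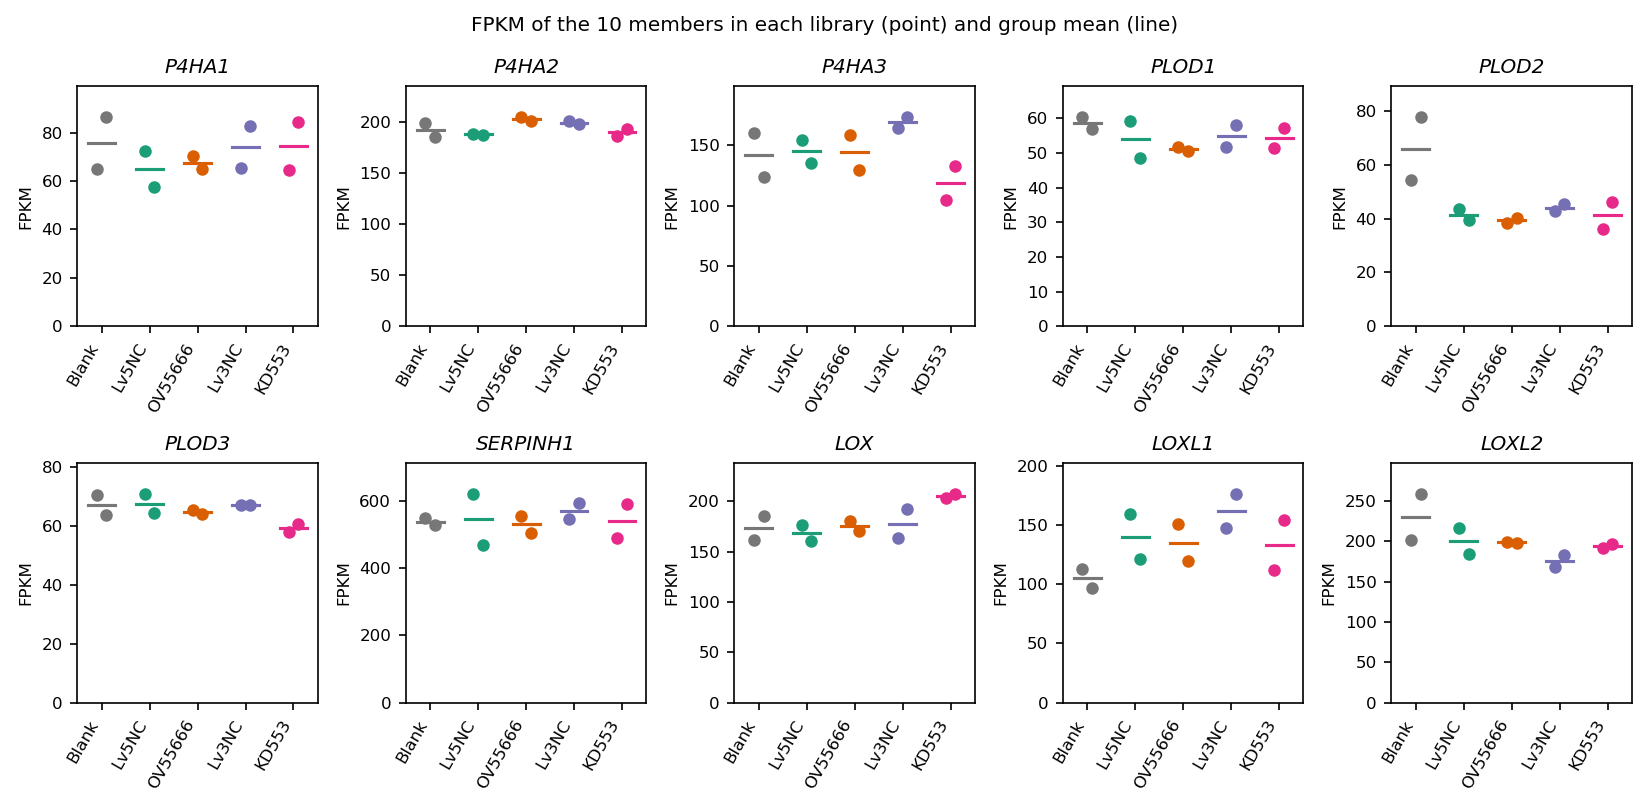
FPKM (vertical axis, from 0, with its own scale in each panel) of each member in the 5 groups (horizontal axis); points are single libraries and lines are the means of 2. PLOD2 is at 54.3 and 77.7 in Blank and at no more than 46.3 in every other library, P4HA2 lies between 185 and 204, and LOX is highest in both KD553 libraries.

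Among the alpha subunits of prolyl 4-hydroxylase, P4HA2 was the highest per length and the steadiest. P4HA2 was at 199 and 185 FPKM in the Blank libraries, 188 and 187 in Lv5NC, 204 and 200.7 in OV55666, 200.6 and 198 in Lv3NC, and 186 and 194 in KD553. The highest library was only 1.11 times the lowest, and only the 2 OV55666 libraries lay above all others, the lower of them at 200.71 against 200.64 in the next library. Of all genes tested, 1.28% were highest in both OV55666 libraries. The order of the group means was OV55666, Lv3NC, Blank, KD553 and Lv5NC, and only the first pair of neighbours did not overlap. P4HA2 made up 43.6% to 52.4% of the summed FPKM of the alpha subunits.

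P4HA3 was at 159.9 and 124 FPKM in Blank, 154 and 136 in Lv5NC, 159 and 129.9 in OV55666, 165 and 173 in Lv3NC, and 105 and 133 in KD553. Both Lv3NC libraries were above the other 8 (2.26% of all genes tested were), and in the order Lv3NC, Lv5NC, OV55666, Blank and KD553 no other neighbours were separate. The KD553 libraries were below both of Lv5NC and overlapped with those of Blank and OV55666. The deposited row of P4HA3 holds 5 transcripts, 2 of them without a RefSeq accession, and a protein description of its neighbour PGM2L1 (glucose 1,6-bisphosphate synthase) stands in it too. How much of its level comes from reads next to P4HA3 is unknown and was not tested. The row of PGM2L1 itself was at 0.92 to 1.97 FPKM, but reads counted in the row of P4HA3 may be missing from it.

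P4HA1, the least abundant alpha subunit, was at 65.0 and 86.4 FPKM in Blank, 72.4 and 57.6 in Lv5NC, 70.2 and 64.9 in OV55666, 65.3 and 83.0 in Lv3NC, and 64.5 and 84.5 in KD553. The libraries within Blank, Lv5NC, Lv3NC and KD553 each lay further apart than any 2 group means. No neighbouring groups in the order Blank, KD553, Lv3NC, OV55666 and Lv5NC were separate. The partner subunit P4HB was more abundant than any alpha subunit, at 440 to 509 FPKM.

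The lysyl hydroxylases were lower and close to each other. PLOD1 was at 60.3 and 57.0 FPKM in Blank, 59.3 and 48.7 in Lv5NC, 51.7 and 50.5 in OV55666, 51.7 and 58.2 in Lv3NC, and 51.4 and 57.3 in KD553. Every neighbouring pair in the order Blank, Lv3NC, KD553, Lv5NC and OV55666 overlapped for this gene, the enzyme of helical lysines. PLOD3, which also adds the sugars to hydroxylysine, was at 70.5 and 63.8 in Blank, 71.0 and 64.3 in Lv5NC, 65.5 and 64.0 in OV55666, 67.0 and 67.0 in Lv3NC, and 58.1 and 60.6 in KD553. Both KD553 libraries had the lowest PLOD3 of the 10, below both OV55666 libraries, the next in the order, and OV55666 in turn lay below Lv3NC. Of all genes tested, 3.79% were lowest in both KD553 libraries.

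PLOD2, the telopeptide lysyl hydroxylase, varied most among the members, its highest library being 2.14 times its lowest. It was at 54.3 and 77.7 FPKM in Blank, 43.6 and 39.4 in Lv5NC, 38.5 and 40.2 in OV55666, 42.8 and 45.4 in Lv3NC, and 36.3 and 46.3 in KD553. Both Blank libraries lay above the other 8, as did 8.4% of all genes tested, and the other 4 groups overlapped with their neighbours. As a share of the summed FPKM of the PLOD genes, PLOD2 was at 29.3% and 39.2% in Blank and between 24.7% and 28.2% in the other libraries.

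The chaperone SERPINH1 had the highest level of the members. It was at 548 and 528 FPKM in Blank, 620.3 and 469 in Lv5NC, 554 and 505 in OV55666, 544.5 and 593 in Lv3NC, and 488 and 589 in KD553. The widest gap lay inside the Lv5NC group, whose libraries were the highest and the lowest of all 10, and no neighbouring groups were separate. Its mean of 544 FPKM stood beside a mean of 562 for PPIB, a prolyl isomerase of the same compartment, which ranged from 526 to 591.

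Among the cross-linking enzymes LOX was at 161 and 185 FPKM in Blank, 177 and 160.4 in Lv5NC, 181 and 170.1 in OV55666, 163 and 192 in Lv3NC, and 203 and 207 in KD553. The KD553 libraries were the 2 highest, as they were for 5.94% of all genes tested. LOXL2, which also acts on basement membrane collagen, was at 201 and 259 in Blank, 216 and 185 in Lv5NC, 199.7 and 198 in OV55666, 169 and 183 in Lv3NC, and 192 and 197 in KD553. Its 2 lowest libraries were those of Lv3NC (so for 1.57% of all genes tested), and the order of its group means was Blank, Lv5NC, OV55666, KD553 and Lv3NC, with OV55666, KD553 and Lv3NC apart from each other. LOXL1, known for its part in elastic fibres, was at 113 and 96.9 in Blank, 159 and 121 in Lv5NC, 150.5 and 119.7 in OV55666, 147 and 176 in Lv3NC, and 112 and 154.5 in KD553, where neighbours in the order Lv3NC, Lv5NC, OV55666, KD553 and Blank all overlapped. Elastin (ELN), the substrate of LOXL1 in elastic fibres, did not exceed 0.87 FPKM. The remaining family members LOXL3 (mean 29.2) and LOXL4 (mean 2.39) were lower than LOX, LOXL1 and LOXL2.

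**Figure D2:**
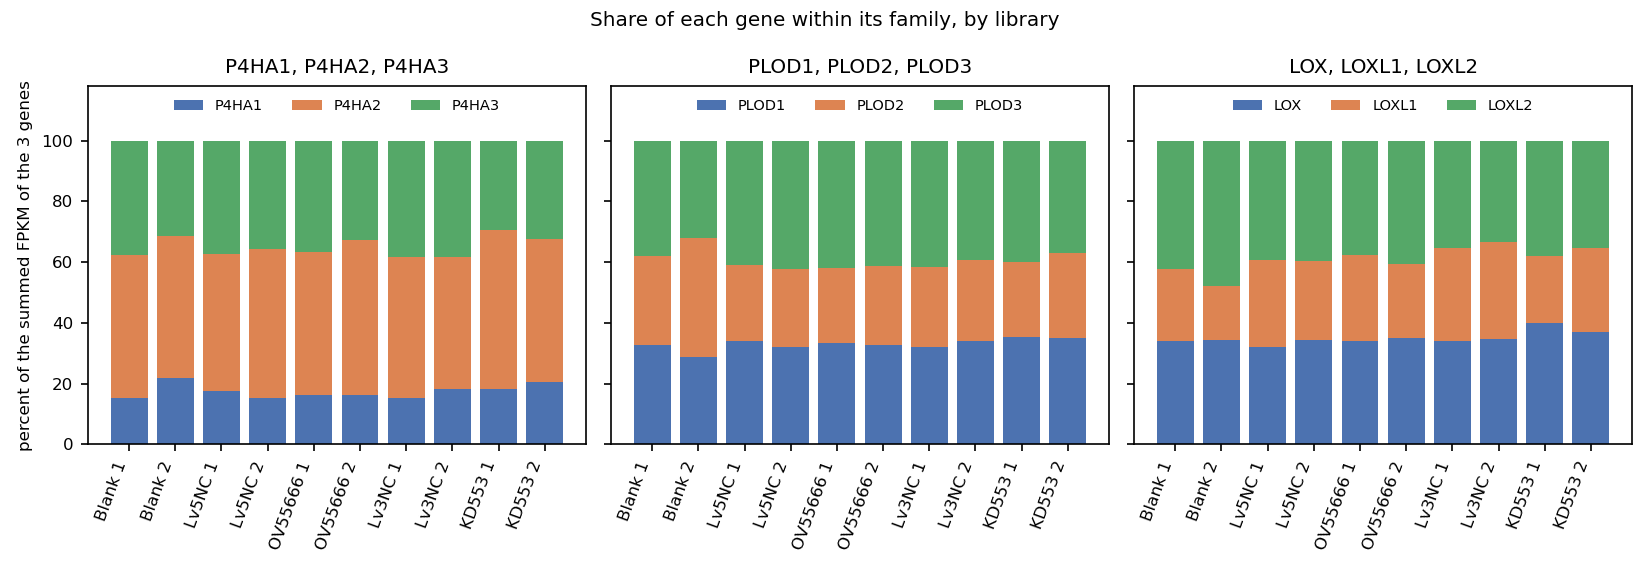
Percent of the summed FPKM (vertical axis) that each gene gave within the P4HA, PLOD and LOX families in each of the 10 libraries (bars). PLOD2 gave 39.2% in the second Blank library and 29.3% in the first, and LOX gave 40.1% and 37.1% in the KD553 libraries against 32.0% to 34.9% elsewhere.

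With lncRNA55666 overexpression, every member was close to its level in Lv5NC. No member rose or fell (limma, 0 of 10, 0 at an unadjusted p under 0.05), where 0.0% of all 11340 genes were called and 166 (1.46%) had an unadjusted p under 0.05. The changes ran from a log2 of −0.07 in PLOD2 to 0.11 in P4HA2, with a median of −0.02 beside 0.02 over all genes. P4HA2 was at 202.6 ± 2.7 FPKM (SD, n = 2) against 187.7 ± 0.6, a log2 change of 0.11 with a 95% interval from −0.08 to 0.30. It was the only member of which the groups did not overlap, which was so for 26.8% of all genes. The intervals of other members were wider, at −0.19 to 0.31 for LOX, −0.36 to 0.31 for SERPINH1, −0.45 to 0.30 for PLOD2 and −0.50 to 0.40 for LOXL1.

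With the knockdown, the members pointed in different directions and no member passed the test (limma, 0 of 10, 1 at an unadjusted p under 0.05), where 0.0705% of all genes were called and 853 (7.52%) had an unadjusted p under 0.05. The median log2 change was −0.08 beside 0.00281 over all genes, with 3 members higher and 7 lower. The groups did not overlap for 5 of 10 members, and 37.7% of all genes were like this. P4HA3 was at 118.9 ± 20.03 FPKM in KD553 against 169.0 ± 6.0 in Lv3NC (log2 −0.51, 95% interval −0.88 to −0.15, limma adjusted p = 0.481). Lv3NC had the highest P4HA3 of all groups, and with Lv5NC as the control the log2 change was −0.29 and with Blank −0.25. Without the first KD553 column it was −0.34 against Lv3NC. PLOD3 was at 59.3 ± 1.8 against 67.0 ± 0.03 (log2 −0.17, interval −0.36 to 0.02, adjusted p = 0.703). It was at −0.18 against Lv5NC and −0.17 against Blank.

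The cross-linking enzyme LOX stood at 205.1 ± 3.0 FPKM in KD553 against 177.5 ± 20.5 in Lv3NC, a log2 change of 0.21 with an interval from −0.04 to 0.47 (limma adjusted p = 0.732). It was 0.28 against Lv5NC and 0.25 against Blank, and moved to 0.09 without the first Lv3NC library and to 0.33 without the second. LOXL2 was at 194.4 ± 3.2 against 176.1 ± 10.5 (log2 0.14, interval −0.15 to 0.44, and 0.08 without the first Lv3NC library), and this sign turned with the other controls, at −0.04 against Lv5NC and −0.23 against Blank. LOXL1 was at 133.1 ± 30.3 against 161.8 ± 20.5, a log2 change of −0.29 with an interval from −0.74 to 0.15. It was −0.06 without the first KD553 column, −0.53 without the second and −0.16 without the second Lv3NC library. For P4HA1, PLOD1, PLOD2 and SERPINH1 the groups overlapped and the log2 changes lay between −0.10 and 0.00.

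**Figure D3:**
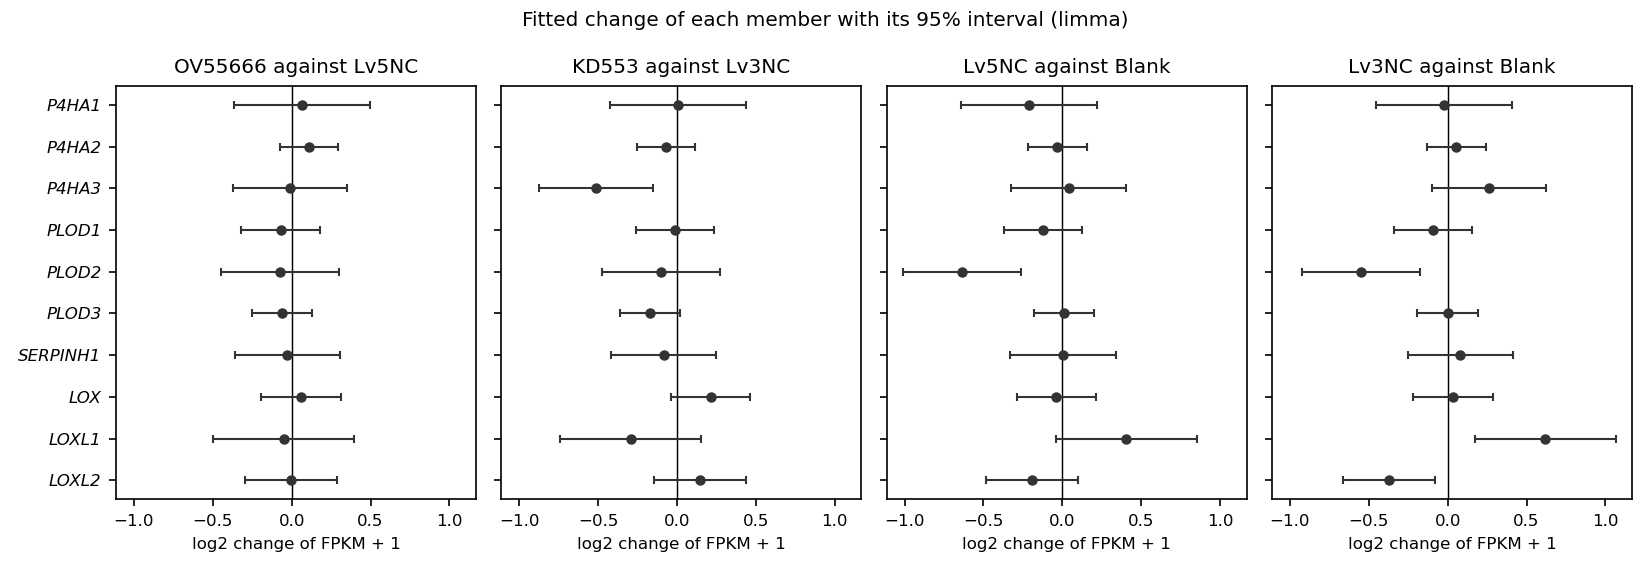
Fitted log2 change of FPKM + 1 (horizontal axis) of each member in 4 comparisons (panels); points are limma estimates from 2 libraries a group and bars are 95% intervals before any adjustment. The intervals of PLOD2 in both comparisons with Blank, of LOXL1 and LOXL2 in Lv3NC against Blank and of P4HA3 in KD553 against Lv3NC lie off 0, and no member passed after adjustment over all genes.

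Set against each other in a single contrast, the effects of overexpression and knockdown differed for no member (limma, 0 of 10, 0 at an unadjusted p under 0.05), where 0.0% of all genes were called and 386 (3.4%) had an unadjusted p under 0.05. The difference was 0.50 on the log2 scale for P4HA3 (95% interval −0.01 to 1.02) and −0.15 for LOX (−0.51 to 0.20). For P4HA3 it was 0.33 without the first KD553 column. For LOX it was −0.04 and −0.27 without the first and second Lv3NC library and −0.09 without the first Lv5NC library. Lv3NC against Lv5NC gave no call among the members either (limma, 0 of 10, 0 at an unadjusted p under 0.05), where 0.0% of all genes were called and 303 (2.67%) had an unadjusted p under 0.05. P4HA2 and P4HA3 were higher and LOXL2 lower in Lv3NC without overlap, and 30.9% of all genes did not overlap there.

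In the comparisons of Lv5NC and of Lv3NC with Blank, the members furthest from 0 were the lysyl hydroxylase PLOD2 and the oxidase LOXL1, and in Lv3NC also the oxidase LOXL2. Both comparisons use the same Blank libraries, so they are not independent. In Lv5NC 0 of 10 members passed (limma, 1 at an unadjusted p under 0.05), where 0.291% of genes were called and 12.6% had an unadjusted p under 0.05, and in Lv3NC 0 of 10 (3 at an unadjusted p under 0.05), where 0.132% were called and 14.8% had an unadjusted p under 0.05. PLOD2 was at 41.5 ± 3.0 FPKM in Lv5NC (log2 −0.64 ± 0.17, SE, adjusted p = 0.149) and 44.1 ± 1.9 in Lv3NC (−0.55 ± 0.17, adjusted p = 0.202) against 66.0 ± 16.6 in Blank. The value depended on which Blank library was used. Without the first, the log2 changes of PLOD2 were −0.89 in Lv5NC and −0.80 in Lv3NC. Only the second Blank library remains there, and it is assumed to vary like the other groups. PLOD2 passed in this setting, in which far more of all genes were called than with both Blank libraries (counts in the last section). Without the second Blank library the log2 changes of PLOD2 were −0.38 and −0.29, and it did not pass.

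LOXL1 was at 140.3 ± 26.8 FPKM in Lv5NC and 161.8 ± 20.5 in Lv3NC against 105.0 ± 11.4 in Blank, a log2 change of 0.41 (95% interval −0.04 to 0.85) and of 0.62 (0.17 to 1.06, limma adjusted p = 0.219). All 4 Lv5NC and Lv3NC libraries were above both Blank libraries, while the first KD553 library, at 112 FPKM, was not. LOXL2 was at 176.1 ± 10.5 in Lv3NC against 229.9 ± 40.8 in Blank (log2 −0.37, −0.67 to −0.08, adjusted p = 0.249), and overlapped with Blank in Lv5NC. Without the second Blank library the log2 change of LOXL1 was 0.30 in Lv5NC and 0.51 in Lv3NC, and that of LOXL2 in Lv3NC was −0.19. Without the first they were 0.52, 0.73 and −0.55 (adjusted p = 0.319, 0.158 and 0.0508). LOXL1 in Lv5NC was at 0.21 without the first Lv5NC library and at 0.60 without the second. P4HA3 was at 169.0 ± 6.0 in Lv3NC against 141.8 ± 25.6 in Blank without overlap (log2 0.26, interval −0.10 to 0.62), and at 0.08 and 0.45 on the log2 scale without the second and the first Blank library. Groups did not overlap for 2 of 10 members in Lv5NC and for 4 of 10 in Lv3NC, where 39.4% and 46.2% of all genes did not. The summed level of the 9 basal or myoepithelial markers with a row was 1877 and 3089 FPKM in Blank and between 1518 and 2081 elsewhere. The highest of these markers were ACTA2 (mean 859 over all libraries), TAGLN (805) and MYLK (282), while KRT14 and TP63 were at no more than 0.09 and 0.05. ACTA2 and TAGLN are also in the list of TGF-beta targets. The part of this sum in these differences was not tested.

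PLOD2 was read beside the targets of the hypoxia-inducible factors, transcription factors that accumulate at low oxygen and are known to act on PLOD2, P4HA1 and LOX. Of 21 tested targets in the list, which holds no member, 17 were below their level in Blank in Lv5NC (median log2 −0.22) and 19 in Lv3NC (median −0.23), beside medians of −0.00873 and 0.0152 over all genes. Without the second Blank library 16 and 18 were below it (medians −0.162 and −0.165), and without the first 18 and 20 (medians −0.38 and −0.334). None rose or fell (0 of 21 in each, limma), where 0.291% and 0.132% of all genes were called. At an unadjusted p under 0.05 were 10 and 9 of the 21 targets (limma), beside 12.6% and 14.8% of all genes. Of the targets, MXI1 was at 1.33 ± 0.09 FPKM in Lv5NC and 1.39 ± 0.07 in Lv3NC against 2.54 ± 0.01 in Blank (adjusted p = 0.0702 and 0.109). The mitophagy gene BNIP3 was at 29.6 ± 4.1 and 31.6 ± 0.4 against 57.2 ± 19.7, and the peptide hormone gene ADM was at 16.9 ± 3.2 in Lv3NC against 37.7 ± 15.6. In the second Blank library the median target lay 0.308 above its mean over all libraries, and in the first 0.111, while in the other 8 libraries it lay between −0.122 and −0.00297. PLOD2 deviated by 0.765 and 0.255 in these Blank libraries and P4HA1 by 0.284 and −0.122. LOX deviated by 0.0481 and −0.153, and its log2 changes were −0.04 in Lv5NC and 0.03 in Lv3NC against Blank. In the second and first Blank library P4HA2 deviated by −0.0697 and 0.0357, and LOXL2 by 0.379 and 0.017. The medians of the collagen chains (0.139) and of the tested basal or myoepithelial markers (0.648), ACTA2, TAGLN and MYLK among them, were also highest in the second Blank library. The part of these lists in the level of PLOD2 was not tested.

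**Figure D4:**
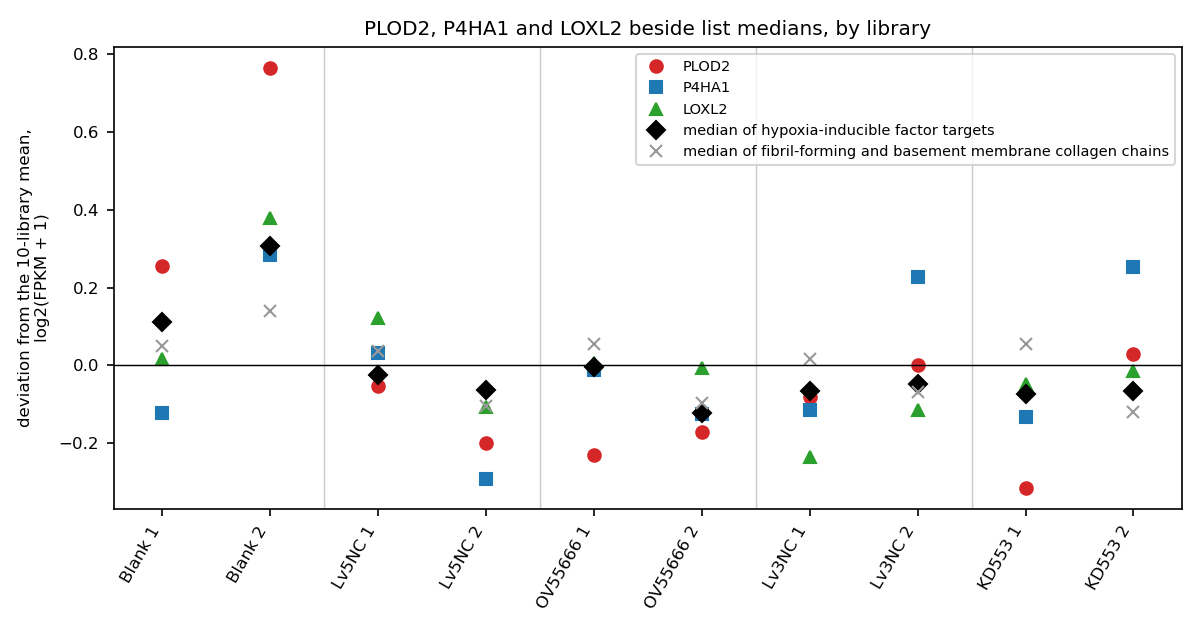
Deviation of log2(FPKM + 1) from the mean over all 10 libraries (vertical axis) in each library (horizontal axis) for PLOD2, P4HA1 and LOXL2, with the medians of 21 hypoxia-inducible factor targets and 10 collagen chains. The 3 genes and both medians are highest in the second Blank library, where PLOD2 lies at 0.765, the median target at 0.308 and the median collagen chain at 0.139. LOX and P4HA2 are not plotted and were at 0.0481 and −0.0697 in that library.

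In 4 of 5 groups nearly all members lay to the same side between the libraries of the group. All 10 were lower in the second Lv5NC library than in the first (median log2 difference −0.206), where 56.5% of all genes were lower and the median was −0.0262. All 10 were higher in the second column of KD553 than in the first (median 0.212), where 48.4% of all genes were higher. In Lv3NC 9 of 10 were higher in the second library (47.9% of all genes) and in OV55666 9 of 10 were lower (53.3%), while in Blank they split, 4 higher and 6 lower. Related lists did likewise in some groups and not in others. Of the other collagen processing genes 4 of 20 were higher in the second Lv5NC library and 15 of 20 in the second Lv3NC library. In the second KD553 column 10 of 10 TGF-beta targets and 12 of 13 genes of the endoplasmic reticulum chaperone list were higher. There 12 of 20 other collagen processing genes, 4 of 10 collagen chains, 2 of 6 lysyl oxidase partners and 2 of 12 fibroblast markers were higher. In OV55666, where 9 of 10 members were lower in the second library, 11 of 13 genes of the chaperone list were higher. LOXL1 and SERPINH1 had gaps in Lv5NC that were wider than those of 93.1% and 93.7% of all genes. These are differences between single libraries.

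Across the 10 libraries the pair of members with the highest correlation of log2(FPKM + 1) was P4HA3 and PLOD3 (Pearson r = 0.820), followed by PLOD1 and SERPINH1 (0.774) and PLOD2 and LOXL2 (0.742). For PLOD2 and LOXL2 the Spearman rho was lower, at 0.406, and both were highest in the second Blank library. The lowest was that of PLOD3 and LOX (r = −0.643), which lay lowest and highest in KD553. These values describe 10 libraries in 5 groups, all values of a library share its depth and scaling, and they carry no test. The genes most like PLOD2 over the 10 libraries were RAB6A (r = 0.964), PAK1 (0.957) and CBX1 (0.956). For LOX they were SQRDL (0.959), NEK4 (0.936) and SELENBP1 (0.933), and for SERPINH1 they were NUP160 (0.973), SF3A3 (0.966) and MINA (0.952).

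The other genes of collagen processing gave no call. Of 23 listed enzymes, chaperones and proteinases, 20 were tested, and 0 rose or fell in any comparison (limma, 3 or fewer at an unadjusted p under 0.05 in each). Their median log2 change ran from −0.00545 in the knockdown to 0.0937 in Lv3NC against Blank, beside 0.00281 and 0.0152 over all genes. The most abundant were the prolyl isomerase PPIB (mean 562 FPKM), P4HB (mean 471.5) and PCOLCE (mean 329), which enhances the cleavage of procollagen. In the knockdown P3H1, which 3-hydroxylates proline, was at 46.5 ± 2.9 FPKM against 58.7 ± 6.2 in Lv3NC (log2 −0.33, limma adjusted p = 0.535), and LOXL4 was at 3.36 ± 0.16 against 1.88 ± 0.86 (0.63, adjusted p = 0.578). ADAMTS14, a procollagen N-proteinase, was at 1.29 ± 0.25 in Lv5NC and 1.05 ± 0.18 in Lv3NC against 2.10 ± 0.13 in Blank (adjusted p = 0.265 and 0.158). PCOLCE2 was at 68.3 ± 13.5 and 72.6 ± 12.2 against 49.8 ± 7.9.

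Of 8 partners of the lysyl oxidases and genes of copper supply, 6 were tested and 0 rose or fell in any comparison (limma, at most 1 at an unadjusted p under 0.05). Fibronectin (FN1), which binds LOX, was at 2912 ± 31 FPKM in KD553 against 2635 ± 24 in Lv3NC and at 2874 ± 100.8 in OV55666 against 3083 ± 64 in Lv5NC (adjusted p = 0.855 and 1.00). The copper importer SLC31A1 was at 20.8 ± 0.8 in Lv3NC against 24.1 ± 0.5 in Blank (adjusted p = 0.262), and POSTN, a scaffold for LOX activation, did not exceed 0.81 FPKM. Of the 12 collagen chains listed as substrates 10 were tested and 0 rose or fell (at most 1 at an unadjusted p under 0.05). COL11A1 was at 87.0 ± 2.6 in KD553 against 57.1 ± 1.2 in Lv3NC (log2 0.60, adjusted p = 0.568) and COL5A1 at 316 ± 22 against 396 ± 14 (−0.32, adjusted p = 0.685).

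Lists that touch SERPINH1 were read beside it. Of 11 tested heat shock factor targets 0 rose or fell in any comparison (limma, 2 or fewer at an unadjusted p under 0.05, beside 1.46% to 14.8% of all genes). Against Blank, 10 of 11 were above 0 in Lv5NC and 10 of 11 in Lv3NC (median log2 0.111 and 0.198, beside −0.00873 and 0.0152 over all genes). The median target deviated by −0.167 in the second Blank library and by 0.0156 in the first. In the knockdown 3 were above 0 and 8 below (median −0.0348), with HSP90AA1 at 196 ± 21 FPKM in KD553 against 254 ± 4 in Lv3NC (limma adjusted p = 0.405). Of 13 genes listed with the endoplasmic reticulum chaperones, of which HERPUD1 and DDIT3 are not chaperones, 0 rose or fell (limma). Against Blank, 3 in Lv5NC and 8 in Lv3NC had an unadjusted p under 0.05 (limma), where 12.6% and 14.8% of all genes had. Their median log2 changes were 0.112 and 0.247, beside −0.00873 and 0.0152 over all genes. The 3 in Lv5NC were SDF2L1, HERPUD1 and DDIT3 (log2 0.34, 0.27 and −0.31). SDF2L1 was at 28.7 ± 2.0 FPKM in Lv5NC and 28.8 ± 0.2 in Lv3NC against 22.4 ± 1.5 in Blank (limma adjusted p = 0.142 and 0.152). SERPINH1 itself had log2 changes of 0.00 (interval −0.33 to 0.34) and 0.08 (−0.25 to 0.41) in these comparisons. Of 10 TGF-beta targets 0 rose or fell (2 or fewer at an unadjusted p under 0.05), and LTBP2, a latent TGF-beta binding protein, was at 59.3 ± 4.1 and 64.5 ± 0.3 against 42.0 ± 2.5 in Blank (adjusted p = 0.0968 and 0.0824).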

How the data were processed

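RNA sequencing was done on 5 groups of 2 libraries. The deposited table gives FPKM, per the file headers, with 2 decimals for each of 17197 genes. Which aligner, counter and build the authors used is not given in the sources used here. Gene identifiers were matched to RefSeq (ARS1.2 assembly) for symbols and neighbours only, which matched 16658 rows. No count of reads was used, so the depth and its error are unknown. The titles and descriptions of the KD553 samples carry different numbers, so its columns carry no number of their own.

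Values were analysed as log2(FPKM + 1) for the 11340 genes with at least 1 FPKM in at least 2 libraries. Fold changes are on this scale, which understates those of low genes. limma 3.58.1 in R 4.3.3 (trend and robust options, a mean for each group, all 10 libraries, 5 residual degrees of freedom) was fitted to all genes, with Benjamini-Hochberg adjustment over all genes tested and a threshold of 0.05. An exact permutation test of 2 against 2 libraries cannot go below p = 0.333 and was not used. The fit was tested on simulated data with 200 changed genes and independent errors. Over the comparisons it recovered 93.3% to 96.3% of log2 changes of 1 and 49.7% to 57% of changes of 0.5. The simulated errors had the same spread in every group, while the real Blank libraries differed more than those of other groups. The deviations of the real libraries were also correlated between some groups, so these shares need not hold here.

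The members and the 7 pathway and 6 marker lists were chosen with earlier results of these data known. Every member is named. From each list the rule took called genes, otherwise up to 3 genes without overlap and with the smallest p, and for levels the 3 highest; not all of them are reported. The genes most like PLOD2, LOX and SERPINH1 are the 3 with the highest Pearson r. Alternatives were other pseudocounts, filters, scalings, variance options and controls, libraries left out and a replicate block. Leaving the second Blank library out of comparisons that do not use it, and each Blank library out of the hypoxia list, were chosen after seeing the data.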

Additional observations from a re-analysis of the deposited data

Results flagged for a closer look

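P4HA2, an alpha subunit of prolyl 4-hydroxylase, was marked because both OV55666 libraries (204 and 200.7 FPKM) lay above both Lv5NC libraries (188 and 187) and both KD553 libraries (186 and 194) below both Lv3NC libraries (200.6 and 198). The test of the difference between the effects gave a log2 difference of 0.18 (95% interval −0.08 to 0.44, limma adjusted p = 1.00). The separate changes were 0.11 and −0.07, and neither passed the test. Groups did not overlap, in either direction, for 26.8% of all genes in OV55666 against Lv5NC and for 37.7% in KD553 against Lv3NC. The share of all genes that separate in opposite directions in both was not computed, so the mark does not set P4HA2 apart.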

How the results depend on the processing

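FPKM keep no depth, so counting error is unknown, and with 2 libraries a group the intervals are wide. No member was called with all libraries. Of 1010 member changes under alternatives, 940 kept their direction and side of the threshold, 68 changed sign (51 of them with a library left out) and 2 passed, both PLOD2 without the first Blank library. No change that turned sign was larger than 0.293 on the log2 scale with all libraries, and the cause was not tested. With libraries centred on their median the log2 changes that turned sign were −0.00437 for P4HA1 (KD553 against Lv3NC). With quantile normalization the log2 changes that turned sign were −0.0148 for P4HA1 (KD553 against Lv3NC), −0.036 for P4HA3 (Lv5NC against Blank), −0.0395 for PLOD3 (Lv5NC against Blank), −0.0732 for SERPINH1 (Lv5NC against Blank), −0.00223 for P4HA2 (Lv3NC against Blank), −0.0698 for SERPINH1 (Lv3NC against Blank), −0.025 for LOX (Lv3NC against Blank). With Lv5NC as the control the log2 changes that turned sign were 0.0155 for P4HA2 (KD553 against Lv3NC), 0.0134 for PLOD1 (KD553 against Lv3NC), −0.0396 for LOXL2 (KD553 against Lv3NC). With Blank as the control the log2 changes that turned sign were −0.0205 for P4HA1 (KD553 against Lv3NC), 0.324 for LOXL1 (KD553 against Lv3NC), −0.23 for LOXL2 (KD553 against Lv3NC), −0.149 for P4HA1 (OV55666 against Lv5NC), 0.0292 for P4HA3 (OV55666 against Lv5NC), 0.355 for LOXL1 (OV55666 against Lv5NC). With single libraries left out the ranges in OV55666 against Lv5NC were P4HA3 −0.154 to 0.133, PLOD1 −0.211 to 0.0697, PLOD3 −0.131 to 0.00916, SERPINH1 −0.23 to 0.172, LOXL1 −0.245 to 0.144, LOXL2 −0.121 to 0.107, P4HA1 −0.101 to 0.225, LOX −0.0111 to 0.127. With single libraries left out the ranges in KD553 against Lv3NC were P4HA1 −0.188 to 0.197, PLOD1 −0.0988 to 0.0689, PLOD2 −0.275 to 0.069, SERPINH1 −0.219 to 0.0515. With single libraries left out the ranges in Lv5NC against Blank were P4HA2 −0.0841 to 0.0213, P4HA3 −0.144 to 0.224, PLOD3 −0.0602 to 0.0809, SERPINH1 −0.196 to 0.206, LOX −0.138 to 0.0631, PLOD1 −0.263 to 0.018. With single libraries left out the ranges in Lv3NC against Blank were PLOD3 −0.0714 to 0.0698, LOX −0.084 to 0.151, P4HA1 −0.228 to 0.178. With single libraries left out the ranges in Lv3NC against Lv5NC were PLOD3 −0.0812 to 0.0589, PLOD1 −0.112 to 0.169, SERPINH1 −0.126 to 0.276, LOX −0.0465 to 0.189. With single libraries left out the ranges in OV55666 effect minus KD553 effect were PLOD1 −0.196 to 0.0846, P4HA1 −0.135 to 0.25, PLOD2 −0.143 to 0.201, SERPINH1 −0.146 to 0.256.

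Genes called in OV55666 against Lv5NC were 0, with 1 at a pseudocount of 0.1 and 43 with Blank as the control. In KD553 against Lv3NC the 8 called became 0 when only the compared groups were fitted, 2 with Lv5NC and 286 with Blank as the control, and 0 to 12 with a library left out (12 without the second Blank library, 2 and 3 without the first and second Lv3NC library, 0 without either KD553 column). In Lv5NC against Blank the 33 called became 18 and 12 at pseudocounts of 0.1 and 0.5, 13 without a filter and 0 to 288 with a library left out (288 and 3 without the first and second Blank library, 0 without either Lv5NC library), and members called were 0 to 1. In Lv3NC against Blank the 15 called became 6 and 7 at these pseudocounts, 7 without a filter, 7 with the filter in every library, 8 with a minimum of 5 FPKM, 56 when only the compared groups were fitted and 0 to 292 with a library left out (292 and 1 without the first and second Blank library, 0 without either Lv3NC library), and members called were 0 to 1. In Lv3NC against Lv5NC 1 was called without a filter and 0 with any library left out. Nothing in the labels says that replicate numbers pair the libraries. The deviations of same-numbered libraries correlated at 0.503 between Lv5NC and OV55666 and at 0.444 between Lv3NC and KD553, whose numbers are uncertain, and between −0.622 and 0.16 for the other pairs of groups. A block shared by all groups cannot take up such opposite directions, and separate blocks for each compared pair were not fitted. With the number as a block 1 gene was called in KD553 against Lv3NC, 0 in Lv5NC against Blank and 0 in Lv3NC against Blank, and with the KD553 numbers exchanged 5 and 12 in the first and second of these, with no member called in any of them.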
